A study of Homo sapiens with 6 samples.

Results

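Centrins are small calcium-binding proteins of the EF-hand family that sit inside centrioles, the barrels of microtubules at the core of the centrosome. The centrin group examined here was chosen by gene name and held 5 genes of the 58735 in the deposited table: the centrin genes CETN1, CETN2 and CETN3, and POC5 and SFI1, whose proteins bind centrins. RNA-seq read counts came from 6 libraries of RPE-1, an immortalised human retinal pigment epithelial cell line. In all 6 libraries the cells carried CETN2 tagged with GFP and a PLK4 gene under an rtTA, doxycycline-inducible promoter, and doxycycline at 1 µg/mL was used to induce PLK4, which encodes the kinase that drives centriole duplication. The 3 siControl libraries came from cells given a scramble siRNA and the 3 siSON libraries from cells given an siRNA against SON, a splicing factor of nuclear speckles, so no library was without PLK4 induction. The question was which mRNAs change in abundance once SON is lost. Nothing in the labels says that the replicates were separate cultures, so p-values measure the spread between these libraries, which may be technical.

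Centrin 2 and centrin 3 line the lumen of the distal centriole, where POC5 carries centrins as part of the inner scaffold that holds the microtubule wall together. SFI1 is a long protein built of repeats, each of which can bind a centrin. Centrin 2 also works in the nucleus: it is a subunit of the XPC complex, which recognises DNA damage for nucleotide excision repair, and of TREX-2, which links transcribed genes to mRNA export at the nuclear pore. Centrin 1 is known as a germ cell and ciliated cell form.

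The centrin genes resemble each other, and the line carries an extra copy of CETN2, so the sequences bear on what a read count can separate. Over the coding sequence of the longest GENCODE transcript of each gene, CETN2 and CETN1 were identical at 395 of 516 aligned bases (76.6%), and CETN2 and CETN3 at 311 of 501 (62.1%). The longest unbroken identical run was 17 bases for CETN2 and CETN1 and 14 bases for CETN2 and CETN3. The stretch of 75 coding bases with the highest identity between CETN2 and CETN3 is shown to make the distance visible, with bases that differ from CETN2 in capitals. These sequences are from GENCODE release 29 on GRCh38. The CETN2 stretch lies on the minus strand at chrX:152827893-152828573 in 2 exonic blocks with an intron between them. The CETN1 stretch is at chr18:580801-580875 on the plus strand, and the CETN3 stretch is at chr5:90399360-90399434 on the minus strand, both within coding exons.
CETN2: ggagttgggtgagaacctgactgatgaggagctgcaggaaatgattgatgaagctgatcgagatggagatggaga
CETN1: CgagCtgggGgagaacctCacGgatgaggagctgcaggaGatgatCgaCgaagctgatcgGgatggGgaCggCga
CETN3: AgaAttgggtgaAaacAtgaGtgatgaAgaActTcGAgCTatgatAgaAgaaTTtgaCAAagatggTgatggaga
Even in this stretch CETN3 differed from CETN2 at 20 positions. CETN1, whose likeness was not used to choose the stretch, differed from CETN2 at 12. No stretch of 50 bases in any annotated transcript of CETN1, CETN2, CETN3 or POC5 occurred in a transcript of another gene, on either strand. For SFI1, 536 of 12947 such stretches (4.14%) did. They were shared with 562 other genes, and 291 of the stretches occurred in DRG1. The table has a single CETN2 row, so reads of the native gene and any reads of the GFP-tagged copy that were assigned to it cannot be told apart.

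Library totals ran from 54572365 to 69764836 counts. SON itself fell to 22.8% of its siControl level in the siSON libraries. PLK4, the induced gene, had 163, 184 and 185 CPM in siControl and 113, 159 and 143 CPM in siSON, where CPM is the count scaled to a common library size with TMM factors, which correct for composition. Of 16591 genes that passed the filter on low counts, 71.7% were called changed, 35.2% higher and 36.5% lower in siSON. A gene was called when its adjusted p from the quasi-likelihood test of edgeR was under 0.05. PLK4 was called lower in siSON (log2 fold change -0.36, edgeR adjusted p 0.0143), and also in all 14 alternatives. The single PLK4 row does not separate the native gene from the inducible copy. Higher genes were 49.1% of calls under TMM and 37.7% when library size alone was used, which moved the log2 fold changes by -0.20 at the median. Of 8 retinal pigment epithelium markers, TYR was at 0 in all libraries, RPE65 and RLBP1 were below the filter, and 5 passed it. Of those 5, MITF (21.7 and 31.1 CPM), OTX2 (19.9 and 35.2) and BEST1 (8.13 and 12.5) had the higher mean in siSON, and PMEL (2.06 and 0.2) and LRAT (0.433 and 0.0692) had the lower mean there. The 8 markers summed to 51.5 to 53.2 CPM in siControl and 74 to 83.4 CPM in siSON. The keratins KRT8 and KRT18 summed to 764 to 863 CPM in siControl and 1331 to 1392 CPM in siSON. The 4 fibroblast markers, all present, summed to 777 to 795 and 404 to 498 CPM, and the part of these marker shifts in the results was not tested. In bulk RNA, fewer cells of a type and less RNA per cell cannot be told apart.

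The members went separate ways after SON depletion. SFI1 and CETN3 fell, to 12.1% and 26.5% of their siControl means, CETN2 rose to 130%, POC5 did not pass the test, and CETN1 was not detected. Of the 4 members tested, 3 (75%) were called changed, beside 71.7% of all genes tested, so the count of calls was near the background. The groups did not overlap for these same 3 members, as for 75.1% of all genes tested. Both falls were at least 2-fold, a size reached by 20.5% of all genes tested in that direction.

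**Figure D1:**
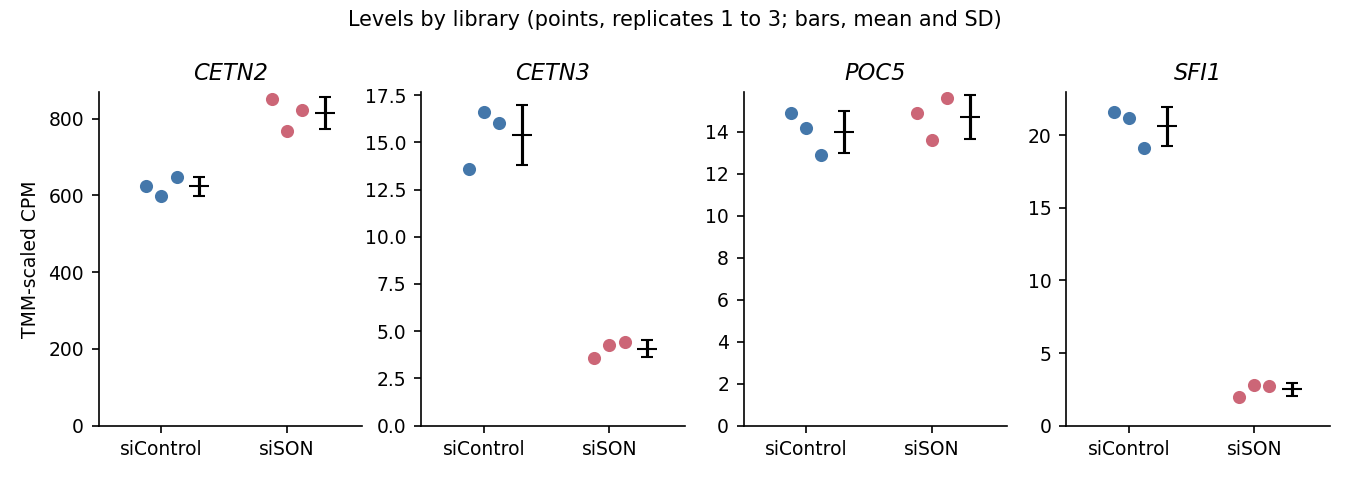
Level of the 4 detected members in each library, in TMM-scaled CPM on axes that start at 0 (points, replicates 1 to 3 from left to right; bars, mean and SD of 3 libraries). CETN3 and SFI1 sit lower in every siSON library, CETN2 sits higher, and the POC5 groups overlap.

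CETN2 (ENSG00000147400, on the minus strand of chromosome X at 152826973 to 152830777 of GRCh38, with 5 exons in its longest transcript) encodes the centrin most used to mark centrioles. Its level in replicates 1, 2 and 3 was 624, 599 and 649 CPM for siControl and 852, 768 and 822 CPM for siSON. All 3 siSON libraries lay above all siControl libraries. The means were 624 ± 25.1 and 814 ± 42.4 CPM (± SD over 3 libraries each), which gave a log2 fold change of 0.38 (SE 0.05, 95% interval 0.26 to 0.50, edgeR adjusted p 5.89e-05). The direction of CETN2 turned under cyclic loess normalization, which flattens trends with expression level, to -0.035 (limma adjusted p 0.519). The adjusted p over all alternatives ranged from 7.07e-12 to 0.519. CETN2 was more abundant in siControl than 99.0% of the genes tested (by CPM), and 31.3% of them had a higher log2 fold change. Both the level and the change may include reads of the tagged copy. No annotated gene overlaps CETN2.

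CETN3 (ENSG00000153140; chromosome 5, 90392261 to 90409786, minus strand, 5 exons) encodes the centrin closest to the yeast protein Cdc31. Its deposited counts were 947, 1054 and 1195 in siControl and 207, 219 and 224 in siSON. As CPM these were 13.6, 16.6 and 16 in siControl and 3.57, 4.25 and 4.41 in siSON. Replicate 1 was the lowest library of each group, and the groups lay far apart. CETN3 went from 15.4 ± 1.59 to 4.07 ± 0.446 CPM (± SD over 3 libraries each), which gave a log2 fold change of -1.92 (SE 0.12, 95% interval -2.18 to -1.65, edgeR adjusted p 9.62e-08). A lower log2 fold change was found for 8.78% of the genes tested. CETN3 also overlaps no annotated gene, and 1 of its 6 annotated transcripts is of the nonsense-mediated decay class.

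The balance between the centrins can be read within a library, where no scaling enters. Per kilobase of merged exon length, CETN2 exceeded CETN3 by 74.0, 58.2 and 65.4 times in siControl and by 385, 291 and 300 times in siSON. CETN3 therefore made up 1.51% ± 0.178 of the summed CETN2 and CETN3 level per kilobase in siControl and 0.311% ± 0.0451 in siSON (SD, n = 3 each). The CETN2 level may include the tagged copy, so the share of CETN3 relative to native CETN2 alone is not known from these counts.

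CETN1 (ENSG00000177143; chromosome 18, 580357 to 582114, plus strand, 1 exon) had 0 counts in all 6 libraries. With the 3 counts that an observed 0 allows, its level was at most 0.0430 to 0.0550 CPM by library before TMM scaling, for counting error only. Among male germ cell markers, PRM1 and TNP1 were at 0 in all libraries, ACRV1 had no more than 1 count and DDX4 no more than 4.

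SFI1 (ENSG00000198089; chromosome 22, 31488688 to 31618586, plus strand, 31 exons) encodes the centrin-binding repeat protein and had the largest log2 fold change among the 4 members tested, under all 14 alternatives as well. It had 1510, 1347 and 1426 counts in siControl and 114, 143 and 139 counts in siSON. The CPM values were 21.6, 21.2 and 19.1 in siControl and 1.96, 2.77 and 2.73 in siSON. Every siSON library was below every siControl library, and siSON replicate 1 was the lowest of all. The group means were 20.6 ± 1.36 and 2.49 ± 0.456 CPM (± SD over 3 libraries each), which gave a log2 fold change of -3.06 (SE 0.13, 95% interval -3.35 to -2.76, edgeR adjusted p 8.25e-09). Of the genes tested, 3.03% had a lower log2 fold change. SFI1 has 29 annotated transcripts, of which 9 are protein-coding, 3 belong to the nonsense-mediated decay class and 11 are retained-intron forms; the gene counts do not tell these apart.

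The exons of SFI1 overlap those of DRG1 on the same strand and those of PISD, EIF4ENIF1 and the pseudogene H2AFZP6 on the other, and the strand setting of the counting is not given in the sources used here. DRG1, a GTP-binding protein gene, rose from 31.4 ± 0.821 to 52.2 ± 1.08 CPM (± SD over 3 libraries each, log2 fold change 0.73, edgeR adjusted p 7.55e-07). EIF4ENIF1, which encodes a transporter of the cap-binding protein eIF4E, rose by 0.33 on the log2 scale (edgeR adjusted p 0.00414). PISD, whose product makes phosphatidylethanolamine in mitochondria, fell from 37.7 ± 1.33 to 13.7 ± 2.12 CPM (± SD over 3 libraries each, log2 fold change -1.46, edgeR adjusted p 2.68e-07). The fall of SFI1 thus stood beside rises of DRG1 and EIF4ENIF1 and a fall of PISD with a smaller estimate. The part of reads from overlapping genes, or from other genes that share stretches with SFI1, in the SFI1 count was not tested.

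POC5 (ENSG00000152359; chromosome 5, 75674124 to 75717481, minus strand, 12 exons) encodes the inner scaffold protein that recruits centrins into the centriole lumen. It had 14.9, 14.2 and 12.9 CPM in siControl and 14.9, 13.6 and 15.6 CPM in siSON. The groups overlapped, with means of 14 ± 1.01 and 14.7 ± 1.06 CPM (± SD over 3 libraries each). The log2 fold change of POC5 was 0.07 (SE 0.09, edgeR adjusted p 0.52), with a 95% interval from -0.13 to 0.27. That interval holds changes from 0.912-fold to 1.21-fold, and it excludes a fall of the size seen for CETN3 or SFI1. With library size alone the estimate was -0.13 (adjusted p 0.22). The gene has an annotated small RNA pseudogene, RNU6-680P, within its span and no overlapping exon.

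**Figure D2:**
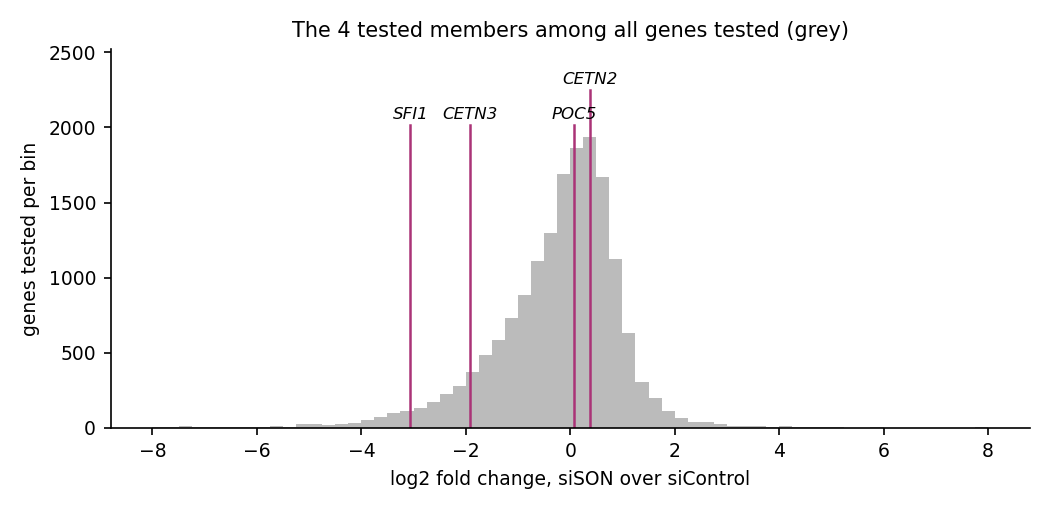
Log2 fold changes of all 16591 genes tested in bins of 0.25 (grey bars, number of genes), with the 4 tested members as vertical lines. SFI1 at -3.06 and CETN3 at -1.92 lie in the left tail, whereas POC5 at 0.07 and CETN2 at 0.38 lie where most genes are.

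The ratio of a pair of genes in the same library does not depend on a scaling factor common to all its genes. All 6 pairs of detected members were therefore also compared as log2 ratios of counts. The log2 ratio of CETN2 to CETN3 was 5.52, 5.18 and 5.34 in siControl and 7.90, 7.50 and 7.54 in siSON, a difference of 2.30, or 4.92-fold. The log2 ratio of POC5 to SFI1, the centrin-binding partners, was -0.54, -0.58 and -0.56 in siControl and 2.92, 2.29 and 2.52 in siSON, a difference of 3.13, or 8.78-fold. By counts not divided by length, SFI1 was thus the higher of the partners in every siControl library and the lower in every siSON library. Per kilobase of merged exon length, POC5 was the higher in all libraries. In siControl POC5 had 3.75 to 4.33 and SFI1 1.57 to 1.78 CPM per kilobase, and in siSON 3.93 to 4.54 and 0.161 to 0.228. CETN3 and SFI1, the members that fell, did not fall by the same estimate, with a CETN3 to SFI1 log2 ratio of -0.43 ± 0.22 in siControl and 0.72 ± 0.13 in siSON (SD, n = 3 each). The smallest difference was that of CETN2 to POC5, from 5.48 ± 0.15 to 5.79 ± 0.07 (SD, n = 3 each), a difference of 0.31. Cyclic loess normalization does not use a common factor, and under it the log2 fold change of CETN2 (-0.035) lay below that of POC5 (0.20). The direction for this pair therefore depends on the normalization. The difference was 3.45 for CETN2 to SFI1 and -1.99 for CETN3 to POC5. The groups stood apart for all 6 pairs, which are built from the same 4 members and so are not separate results. Taken singly, 75.1% of all genes tested stood apart, and the share over gene pairs in general was not computed. For each pair the exact permutation test (2-sided) gave p = 0.1 (0.1 after Benjamini-Hochberg adjustment over the 6 pairs). This is the smallest p that 3 libraries against 3 can give.

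**Figure D3:**
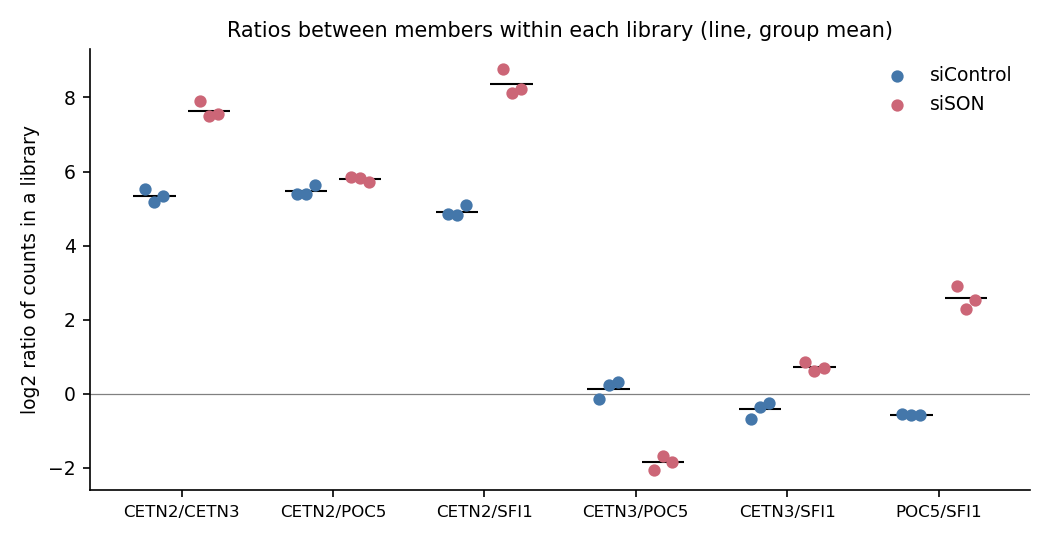
Log2 ratio of the counts of 2 members within a library, for the 6 pairs of detected members (points, the 3 libraries of each group; lines, group means). The siControl and siSON points separate for every pair, most widely for CETN2/SFI1, with a difference of 3.45, and least for CETN2/POC5, with 0.31.

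Levels of different genes were compared per kilobase of merged exon length, and those of CETN2 may include the tagged copy. In siControl the order was CETN2 with 324 ± 13 CPM per kilobase, CETN3 with 4.95 ± 0.513, POC5 with 4.06 ± 0.292 and SFI1 with 1.70 ± 0.112 (SD, n = 3 each), with CETN1 undetected. The neighbours CETN3 (4.37 to 5.34) and POC5 (3.75 to 4.33) were close, and with the length of the longest transcript they had 6.32 ± 0.655 and 6.28 ± 0.451 (SD, n = 3 each), a difference within their spread. In siSON the order was CETN2 with 422 ± 22.0 CPM per kilobase, POC5 with 4.26 ± 0.306, CETN3 with 1.31 ± 0.144 and SFI1 with 0.205 ± 0.0375 (SD, n = 3 each). By merged exon length, no neighbours overlapped in the libraries of either group. The level of SFI1 depends most on the length used: per kilobase of its longest transcript it was 3.93 ± 0.26 in siControl and 0.474 ± 0.0869 in siSON, and that of POC5 in siSON was 6.59 ± 0.473 (SD, n = 3 each).

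A list of 16 centrin-linked genes, written from general knowledge with earlier results of these data known, was read from the same fit. Of these, 13 (81.2%) were called changed, 4 higher and 9 lower, beside 71.7% of all genes tested, and their median log2 fold change was -0.84 beside -0.03 over all genes tested. The split was 1 higher and 11 lower both with library size alone and under cyclic loess normalization. Over all genes, 49.1% of calls were higher under TMM, 37.7% with library size alone and 51.7% under cyclic loess normalization. With 16 genes the list is given as a description.

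**Figure D4:**
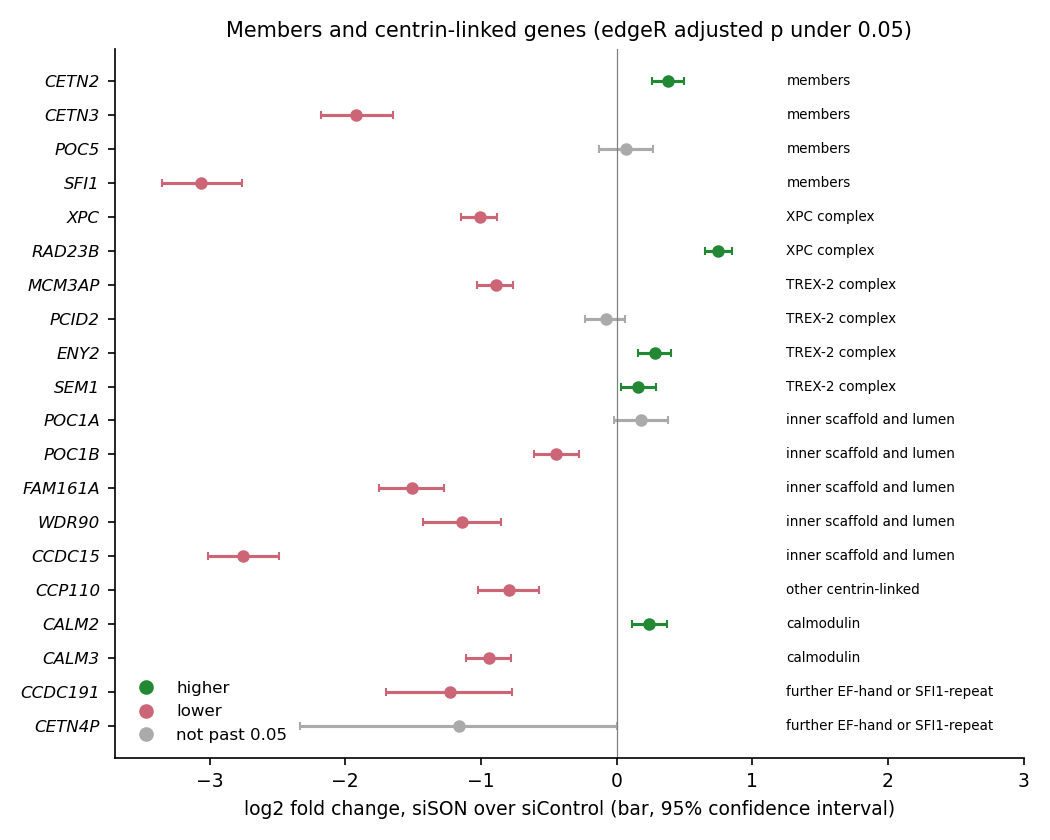
Log2 fold change of the 4 tested members and the 16 listed genes, siSON over siControl, with 95% confidence intervals from edgeR (green, higher; red, lower; grey, adjusted p not under 0.05). SFI1 (-3.06) and CCDC15 (-2.75) lie lowest, and RAD23B (0.75) lies highest.

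In the XPC complex, the damage sensor that carries centrin 2, the 2 genes examined changed, 1 higher and 1 lower, where 71.7% of all genes tested did. XPC, which encodes the DNA-binding subunit, had 140, 151 and 155 CPM in siControl and 71.2, 77.5 and 72.2 CPM in siSON. All siSON libraries were lower, with a log2 fold change of -1.01 (SE 0.06, edgeR adjusted p 6.04e-08). RAD23B, the gene of a partner subunit that stabilises XPC, moved the other way. It rose from 229 ± 3.27 to 385 ± 10.2 CPM (± SD over 3 libraries each, log2 fold change 0.75, edgeR adjusted p 8.57e-08). The exons of XPC overlap LSM3, AC090004.1 and AC093495.1 on the other strand.

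In TREX-2, 3 of 4 genes (75%) changed, 2 higher and 1 lower, a share near the 71.7% of all genes tested. MCM3AP, the gene of the scaffold subunit GANP, had 105, 109 and 105 CPM in siControl and 55.8, 61.8 and 54.5 CPM in siSON. MCM3AP fell by 0.89 on the log2 scale (SE 0.06, edgeR adjusted p 2.1e-07), and its exons overlap those of AP001469.3 on the same strand and MCM3AP-AS1 on the other. ENY2 rose by 0.28 and SEM1 by 0.16 on the log2 scale (edgeR adjusted p 0.000813 and 0.0274). The ENY2 call was lost under library size alone (0.080, adjusted p 0.21) and cyclic loess normalization (0.074, adjusted p 0.232). For SEM1 both of those scalings turned the direction, to -0.035 and -0.038, and the call was also lost without siControl replicate 1 (0.14, adjusted p 0.0996) or siControl replicate 2 (0.11, adjusted p 0.21) and with a mean count of at least 50 (0.11, adjusted p 0.122). PCID2 went from 40.7 ± 0.902 to 38.4 ± 1.92 CPM (± SD over 3 libraries each, edgeR adjusted p 0.257), and was called lower under library size alone (-0.28, adjusted p 0.00249) and cyclic loess normalization (-0.18, adjusted p 0.0318). PCID2 and ENY2 have exons that overlap CUL4A and NUDCD1, respectively, on the other strand.

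Among 5 genes of the inner scaffold and the centriole lumen, where POC5 acts, 4 (80%) were called changed, all lower, beside 71.7% of all genes tested called and 36.5% called lower. CCDC15, an inner scaffold protein gene, had 11.6, 13.4 and 13.1 CPM in siControl and 1.90, 1.98 and 1.77 CPM in siSON, and every siSON library was lower. FAM161A, which encodes a microtubule-binding scaffold protein, fell from 11 ± 0.295 to 3.87 ± 0.375 CPM (± SD over 3 libraries each, log2 fold change -1.51, SE 0.11, edgeR adjusted p 2.76e-07). WDR90 had a log2 fold change of -1.14 (SE 0.13, edgeR adjusted p 1.23e-05), and its exons overlap AL022341.2 on the other strand. POC1B, the scaffold partner of POC5 and FAM161A, fell from 37.3 ± 2.19 to 27.4 ± 1.91 CPM (± SD over 3 libraries each, log2 fold change -0.45, edgeR adjusted p 0.0003), and shares exons with the readthrough gene POC1B-GALNT4 on its own strand. Its paralog POC1A had 29.9 ± 3.08 and 33.9 ± 2.34 CPM (± SD over 3 libraries each), with overlapping groups and a log2 fold change of 0.18 (edgeR adjusted p 0.0899). Without siSON replicate 1 the POC1A value was 0.25 (adjusted p 0.022), and with library size alone it was -0.018. CCP110, which encodes a cap protein of the distal centriole that binds centrin, fell from 58.1 ± 4.59 to 33.6 ± 4.78 CPM (± SD over 3 libraries each, log2 fold change -0.79, edgeR adjusted p 3.28e-05).

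For each tested member, the 3 protein-coding genes with the nearest pattern were sought among 10892 genes whose log2 CPM averaged 1 or more. Likeness was the root-mean-square difference in log2 CPM over the 6 libraries after subtracting each gene's siControl mean. Nearest to CETN2 were CPE (0.013), DNTTIP2 (0.017) and GTF3A (0.018). Nearest to CETN3 were HAGH (0.065), SLC16A3 (0.073) and DCAKD (0.076), and nearest to SFI1 were SHARPIN (0.071), SH3GLB2 (0.076) and TSPAN4 (0.095). PSMG3, PLA2G15 and GPCPD1 were nearest to POC5 (0.048, 0.049 and 0.049). With 6 libraries in 2 groups this measure follows the size of the group difference, and it is a description.

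**Figure D5:**
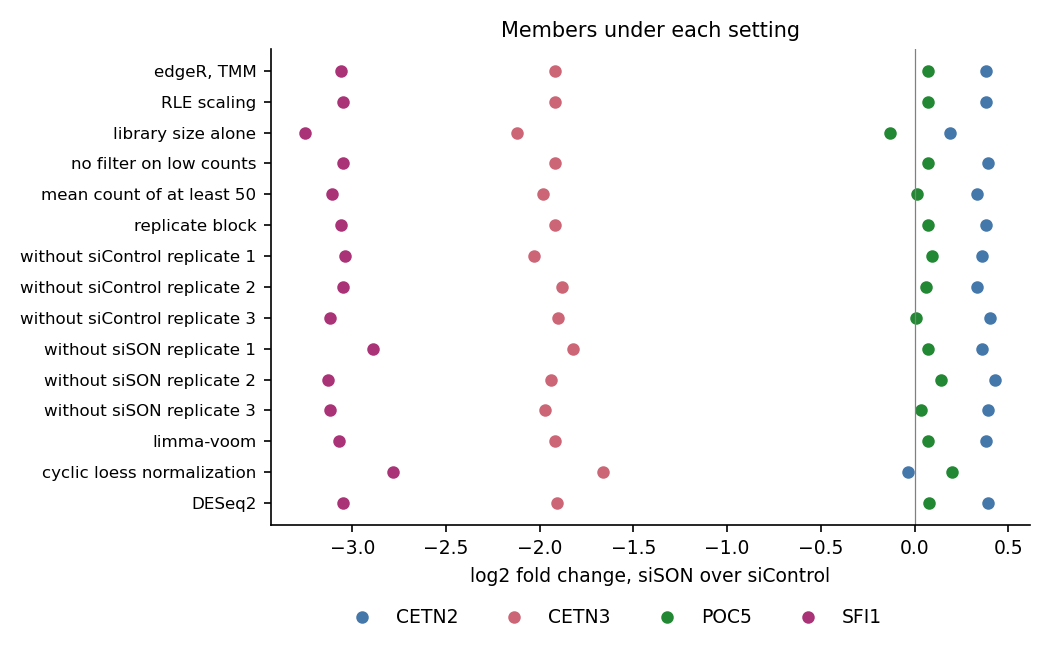
Log2 fold change of CETN2, CETN3, POC5 and SFI1 (siSON over siControl) under edgeR with TMM scaling and under each of 14 alternatives. SFI1 stays between -3.25 and -2.78 and CETN3 between -2.12 and -1.66, while CETN2 drops to -0.035 under cyclic loess normalization and POC5 lies on either side of 0.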

How the data were processed

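Gene counts were analysed as the authors deposited them: raw whole-number counts for each gene, with 1 column per library. The submitters' processing notes name cutadapt 1.16, STAR 2.5.2a, featureCounts 1.6.2, DESeq2 1.28.1 and build hg38; how strand and multi-mapping reads were handled is not given in the sources used here, so counts of overlapping genes are uncertain. All 58735 identifiers matched GENCODE release 29 (GRCh38), used for positions, lengths and sequences. In R 4.3.3, edgeR 4.0.16 was used with filterByExpr (minimum count 10), TMM scaling and a robust quasi-likelihood test of group. The test covered all 16591 genes kept, with Benjamini-Hochberg adjustment. The fit was also run on simulated counts in which few genes changed, so that run does not bear on the choice of scaling here. Standard errors are the absolute log2 fold change over the square root of F. CPM, levels per kilobase and ratios were computed from the counts. Permutation tests used scipy 1.17.1. Alternatives used limma 3.58.1 and DESeq2 1.42.0. No replicate pair agreed within sampling noise (chi-square per degree of freedom 6.68 to 23.6).

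The members, the lists and the tests were chosen with earlier results of these data known. The genes named are the members, SON, PLK4, the genes of the lists and the 3 nearest genes per member; DRG1, PISD and EIF4ENIF1 were added because they overlap SFI1. The lists covered the XPC complex, TREX-2, the inner scaffold and lumen, CCP110, calmodulin, and further EF-hand or SFI1-repeat genes, and markers of retinal pigment epithelium, keratins, leukocytes, fibroblasts and male germ cells. Leukocyte markers summed to 1.12 to 1.98 CPM in siControl and 0.275 to 0.31 CPM in siSON. Some genes of these lists are not reported here and were left out of the counts.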

Additional observations from a re-analysis of the deposited data

How the results depend on the processing

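SFI1 and CETN3 stayed below 0 with an adjusted p under 0.05 in all 14 alternatives. CETN2 did so above 0 in 13 of 14; cyclic loess normalization gave -0.035. POC5 was not called in any, and library size alone gave -0.13. Reversed among listed genes were SEM1 (-0.035 with library size alone and -0.038 with cyclic loess), POC1A (-0.018 with library size alone) and CALM2 (-0.15 under cyclic loess normalization). The cause was not tested. Over all genes tested, the median shift of the log2 fold change under cyclic loess normalization was 0.14. The shift differed between genes: CETN2 moved down from 0.38 to -0.035, and SFI1 moved up from -3.06 to -2.78. The number of listed genes called ranged from 12 to 15. For all genes it ranged from 10226 of 13136 tested (mean count of at least 50) to 12604 of 29256 tested (no filter on low counts). Within-library ratios kept their direction without any 1 library.

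With the longest transcript as length, levels in siControl and siSON were 429 and 560 CPM per kilobase for CETN2, 6.32 and 1.67 for CETN3, 6.28 and 6.59 for POC5, and 3.93 and 0.474 for SFI1.

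Same-numbered libraries had deviations that correlated at 0.194, 0.0461 and 0.118, so the replicate numbers were not taken to pair them, although each library correlated best with its own number. With the replicate block 12313 genes were called, and the log2 fold changes were 0.38 for CETN2, -1.92 for CETN3, 0.069 for POC5 and -3.06 for SFI1; POC1A (0.18, adjusted p 0.0163) and CETN4P (-1.18, adjusted p 0.0387) became called. Low counts limit CETN4P most, with 7 to 58 per library.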

Other observations

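Calmodulin is the closest relative of the centrins among EF-hand proteins, and its genes encode the same protein. CALM3 fell from 593 ± 16.3 to 308 ± 36.2 CPM (± SD over 3 libraries each, with a log2 fold change of -0.94, edgeR adjusted p 7.35e-07). CALM2 rose from 485 ± 35.8 to 573 ± 25.9 CPM (± SD over 3 libraries each, with a log2 fold change of 0.24, edgeR adjusted p 0.00411), a direction that turned under cyclic loess normalization (-0.15, adjusted p 0.0379) and a call that was lost with library size alone (0.043, adjusted p 0.557). The fall of CALM3 held in all 14 alternatives. Counts of such close relatives are uncertain where reads could be assigned to more than 1 of them.

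CCDC191, a gene of the SFI1-repeat kind, had 190, 177 and 227 counts in siControl and 78, 75 and 42 counts in siSON, and fell by 1.23 on the log2 scale (SE 0.21, edgeR adjusted p 0.000288). Its exons overlap QTRT2 and ZDHHC23 on the other strand. The centrin pseudogene CETN4P had 43, 16 and 58 counts in siControl and 25, 8 and 7 in siSON, with overlapping groups and a log2 fold change of -1.16 (SE 0.53, edgeR adjusted p 0.068). It was called lower without siSON replicate 1 (-1.89, adjusted p 0.0105), without siControl replicate 2 (-1.52, adjusted p 0.0209), with library size alone (-1.36, adjusted p 0.0388) and with no filter on low counts (-1.16, adjusted p 0.0174).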
